A study of Mus musculus with 4 samples.

Results

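NRF2, KEAP1 and 8 antioxidant enzymes and transporters were followed at the level of messenger RNA in cultured mouse aortic endothelial cells. The 10 genes were chosen by symbol (Nfe2l2, Keap1, Nqo1, Gclm, Gclc, Slc7a11, Srxn1, Txnrd1, Gsr and G6pdx) from a table of 27179 genes, as the regulator, its inhibitor and classic targets of the pathway. All 10 had a row and all 10 passed the filter on low counts. The cells were of the mAEC line, described as murine aortic endothelial cells, and no genetic change is named for either group. The control group, 2 libraries, was grown in normal medium. The conditioned medium group, also 2 libraries, was treated with the supernatant of macrophages that carried TNFα, an inflammatory cytokine, and CD68, a macrophage marker. The treatment time and the handling of the control medium (both not given in the sources used here) limit the contrast: an effect of the macrophage products and an effect of spent medium cannot be told apart. The libraries are described as biological replicates, but separate cultures are not named, so the p-values measure the spread between these samples, which may be technical.

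As background, NRF2 (encoded by Nfe2l2) is a transcription factor that KEAP1, an adaptor of a CUL3 ubiquitin ligase, marks for degradation in unstressed cells. Oxidants and electrophiles modify cysteines of KEAP1, NRF2 then accumulates, pairs with a small MAF protein and binds antioxidant response elements in its target genes. NRF2 activity is controlled largely at the protein level, which RNA counts do not measure. The targets supply glutathione (Slc7a11, Gclc, Gclm), regenerate it with NADPH (Gsr, G6pdx), keep thioredoxin and peroxiredoxins reduced (Txnrd1, Srxn1) and reduce quinones (Nqo1).

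The core of the antioxidant response element can be written TGACNNNGC, and it was searched on both strands in windows from 250 bases before to 50 bases after the annotated starts (RefSeq, GRCm38.p6). Windows were found for 8 of the 10 genes; Gclc and Gsr had none. The letters occurred in a window of 5 genes, each time once, while 14.0% of the 27025 genes with a window held them (12.4% of 32851 windows). The matches are shown because this element is what NRF2 is known to read. Capitals mark the core, and each sequence runs 5′ to 3′ on the strand that carries it.

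Nfe2l2: agcccaccTGACTCCGCcatgcccc

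Gclm: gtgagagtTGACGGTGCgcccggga

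G6pdx: gtgtgcttTGACTGAGCtgacccgc

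Txnrd1: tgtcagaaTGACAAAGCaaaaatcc

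Srxn1: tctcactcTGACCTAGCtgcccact

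The Nfe2l2 match lay on the minus strand at chr2:75704887-75704911, its core beginning 240 bases before the gene's start. The Gclm match was at chr3:122245415-122245439, minus strand, 134 bases before the start that the window is built on, at 122245557, which lies inside the gene's annotated span. That of G6pdx was at chrX:74428921-74428945, plus strand, 57 bases before, and that of Txnrd1 at chr10:82859106-82859130, minus strand, 92 bases before 1 of its 3 annotated starts. The Srxn1 match, at chr2:152105544-152105568 on the minus strand, began 28 bases after the start. Keap1, Slc7a11 and Nqo1 did not hold these letters in their windows, which says nothing about elements farther away. A match to these letters is a description and was not shown to be bound.

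The libraries held 13815695 to 18005840 counts, of which the 10 genes took 0.129% to 0.134%. Over the 7512 genes whose mean reached 20 CPM (counts scaled to a common library size), the SD of the log2 ratio was 0.12 between the control libraries and 0.08 between the conditioned medium libraries. Mitochondrial genes took 4.42% to 4.68% of control counts and 4.21% to 4.25% of conditioned medium counts; the part of this in the results was not tested. Summed levels of 13 endothelial markers were 7312 to 7348 CPM in control and 7356 to 7426 CPM in conditioned medium, although Vwf stood at 2.30 to 3.49 CPM and Cldn5 held at most 1 count per library. Within that sum, 5 of the 12 tested were called, beside 16.8% of all genes tested. Eng (0.32) and Egfl7 (0.21) were higher, and Robo4 (-0.35), Kdr (-0.16) and Emcn (-0.13) lower on the log2 scale. Of 13 macrophage markers, Adgre1, Tyrobp, C1qa, C1qb and C1qc were at 0 in all libraries. The list summed to 231 to 260.4 CPM in control and 253 to 260.5 CPM in conditioned medium, nearly all of it Cd68. Smooth muscle markers (7 genes) summed to 229 to 239 CPM and then 242 to 244 CPM. Nearly all of that was Smtn, at 224 to 240 CPM, while Acta2 stood at 0 to 0.55 CPM. Fibroblast markers (7 genes, Lum and Col1a2 at 0) summed to 33.9 to 36.8 CPM and then 40.7 to 41.4 CPM, most of it Pdgfra, at 25.3 to 32.1 CPM. Pdgfra was the fibroblast marker called, higher by 0.28 on the log2 scale (edgeR adjusted p = 0.0171). The part of these marker changes in the members' values was not tested.

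The comparison asked how the endothelial cells responded to the macrophage supernatant. The antioxidant genes did not move as a block. Nqo1, the quinone reductase, rose 1.37-fold in conditioned medium, whereas Slc7a11, the cystine transporter, and Gclm, the modifier subunit of the enzyme that begins glutathione synthesis, fell 1.22-fold and 1.19-fold. The other 7 genes, among them the pathway's own regulators Nfe2l2 and Keap1, did not pass the test. The count of 3 genes called of 10 (1 higher, 2 lower) stands beside 16.8% of all 13897 genes tested, 8.53% higher and 8.23% lower, by edgeR's quasi-likelihood test at a Benjamini-Hochberg adjusted p under 0.05, and with 10 genes nothing about the members is read from that count. Their median log2 fold change was 0.0012 and their median absolute log2 fold change 0.07, beside 0.00037 and 0.13 over all genes tested. The absolute values are not matched for level. The 10 genes stood above 20 CPM in every library, a mean that 7512 of the 13897 genes tested reached. The value over all genes thus takes in scarcer genes, whose fold changes are noisier.

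**Figure D1:**
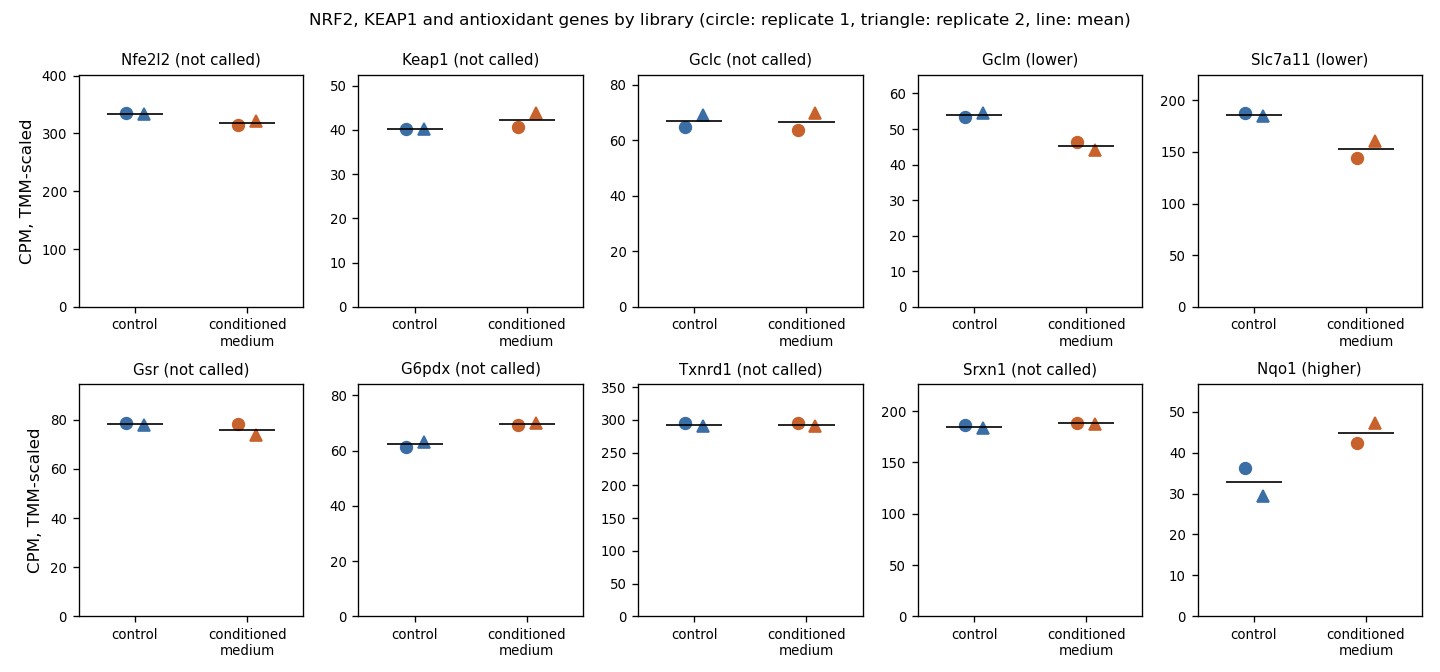
Level of each gene in each library, in TMM-scaled CPM on axes that start at 0. Circles are replicate 1 and triangles replicate 2 (the labels do not say whether the same number links cultures), and lines are means of 2 libraries. Only Nqo1, Gclm and Slc7a11 were called; the Txnrd1 and Srxn1 lines are nearly level.

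Per kilobase of exon (union of exons in the GENCODE M21 basic annotation of GRCm38, the same build as mm10), Nfe2l2 was the most abundant of the 10 messages, at 135 ± 0.43 CPM per kb in control (SD, n = 2). Txnrd1 at 71.8 ± 0.855 and Srxn1 at 65.7 ± 0.75 CPM per kb followed. Gsr stood at 29.3 ± 0.199, G6pdx at 23.5 ± 0.5, Nqo1 at 21.1 ± 3.13, Gclc at 19.5 ± 0.904 and Slc7a11 at 18.9 ± 0.15 CPM per kb. Gclm and Keap1 were the lowest, at 9.65 ± 0.114 and 8.94 ± 0.00921 CPM per kb. In control the ranges of G6pdx and Nqo1 overlapped, as did those of Nqo1, Gclc and Slc7a11, so their order is not resolved. With exon lengths from the comprehensive annotation, Txnrd1 was at 41.3 CPM per kb and Srxn1 at 65.5, so the order of that pair depends on the transcripts counted; the Nfe2l2 level was then 87.9 CPM per kb and still first, and Gclm and Keap1 were both at 8.57. In conditioned medium Nqo1 stood at 28.9 ± 2.16 CPM per kb, its libraries above those of G6pdx (26.3 ± 0.163) and overlapping those of Gsr (28.5 ± 1.24).

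**Figure D2:**
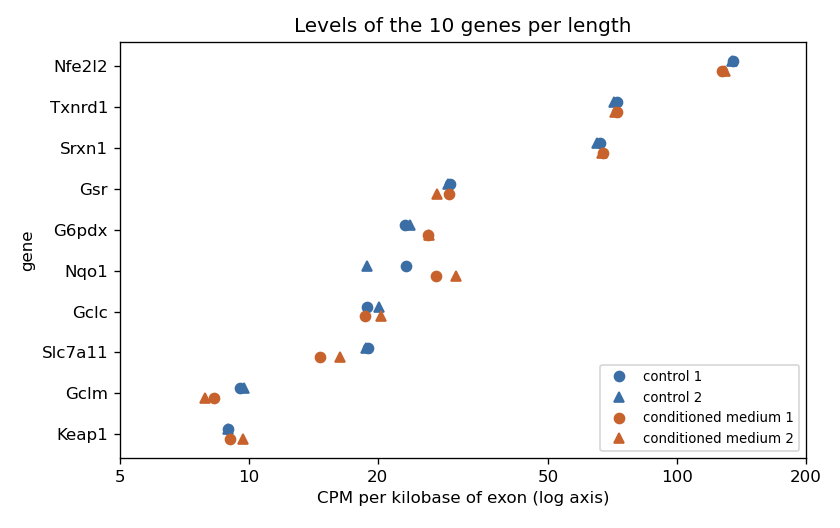
Level per kilobase of exon on a log axis, 1 point per library, with genes ordered by their control mean. Nfe2l2 is at the top at 127 to 135 CPM per kb, and Keap1 and Gclm are lowest, at 7.9 to 9.7. The called genes Nqo1, Slc7a11 and Gclm each show a gap between the groups.

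Nfe2l2 (Entrez 18024, chromosome 2, 75675513 to 75704663) encodes NRF2. It had 334 and 333 CPM in the control libraries and 315 and 321 CPM in the conditioned medium libraries. Both treated libraries lay below both controls, by little. The log2 fold change was -0.07 ± 0.04 (SE; edgeR adjusted p = 0.290), with a 95% interval of 0.897-fold to 1.01-fold. Keap1 (Entrez 50868, chromosome 9, 21229730 to 21239332), the inhibitor, had 40.3 and 40.2 CPM in control and 40.7 and 43.7 CPM in conditioned medium. Its treated libraries lay just above the controls. Its log2 fold change was 0.07 ± 0.07 (edgeR adjusted p = 0.530), with an interval of 0.952-fold to 1.16-fold. An antisense gene, Gm16754, overlaps 510 bases, 11.3%, of the Keap1 exons; the library kit does not mark strand, so reads there cannot be assigned to either gene.

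Slc7a11 (Entrez 26570, chromosome 3, 50364936 to 50499087) is the light chain of the cystine-glutamate exchanger, which brings in cystine as a source of cysteine for glutathione. It held 187 and 185 CPM in the control libraries. In conditioned medium it held 144 and 161 CPM, below both controls. The log2 fold change was -0.28 ± 0.05 (edgeR adjusted p = 5.09e-04), an interval of 0.763-fold to 0.884-fold. The treated libraries differed from each other by more than the controls did: without conditioned medium replicate 1 the log2 fold change was -0.21 and the call was lost (edgeR adjusted p = 0.0861), and without replicate 2 of that group it was -0.37 (edgeR adjusted p = 0.0113), within a range of 2.48e-08 to 0.0861 over 15 alternatives. Slc3a2, its heavy chain, was at 178 ± 3.29 CPM in control and 186 ± 9.31 CPM in conditioned medium and was not called (edgeR adjusted p = 0.411).

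Gclm and Gclc encode the modifier and the catalytic subunit of glutamate-cysteine ligase, which joins glutamate and cysteine. Gclm (Entrez 14630, chromosome 3, 122245487 to 122267215) had 53.5 and 54.4 CPM in control and 46.3 and 44.2 CPM in conditioned medium. The groups did not overlap. Its log2 fold change was -0.26 ± 0.06 (edgeR adjusted p = 0.00674), with an interval of 0.765-fold to 0.916-fold. The Gclm call was lost in DESeq2 (adjusted p = 0.151) and without conditioned medium replicate 1 or 2 (edgeR adjusted p = 0.0543 and 0.173), within a range of 0.00169 to 0.173 over 15 alternatives. Gclc (Entrez 14629, chromosome 9, 77754535 to 77794489) had 64.7 and 69.0 CPM in control and 63.8 and 69.7 CPM in conditioned medium. The 2 groups overlapped almost fully. Its log2 fold change was 0.0019 ± 0.06 (edgeR adjusted p = 0.990), with an interval of 0.917-fold to 1.09-fold.

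Within each library, Gclm made up 45.3% and 44.1% of the summed Gclm and Gclc counts in control, with 95% exact binomial intervals of 42.9% to 47.6% and 41.8% to 46.4%. These counts are not divided by exon length (5.59 kb for Gclm, 3.42 kb for Gclc). The share therefore compares libraries and does not give the balance of the subunits. Per kb the control means were 9.65 for Gclm and 19.5 for Gclc. In conditioned medium the share was 42.0% and 38.8%, with intervals of 39.5% to 44.6% and 36.7% to 40.9%, which cover counting error only. The means were 44.7% ± 0.852 and 40.4% ± 2.29 (SD, n = 2). Both treated shares lay below both control shares, but the interval of conditioned medium replicate 1 overlapped those of the controls. An exact permutation test of 2 against 2 cannot give a two-sided p below 0.333; no other test of the share was run, and the difference is given as a description.

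**Figure D3:**
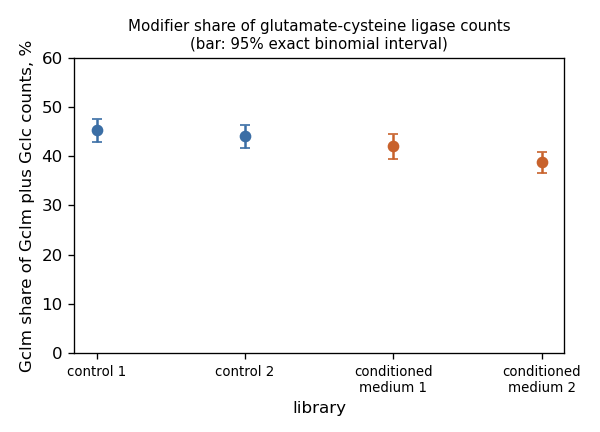
Share of Gclm in the summed counts of Gclm and Gclc in each library, in percent, with 95% exact binomial intervals for counting error. The counts are not divided by exon length, so the share does not give the balance of the subunits. The control libraries are at 45.3% and 44.1% and the conditioned medium libraries at 42.0% and 38.8%.

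Gsr (Entrez 14782, chromosome 8, 33653238 to 33698162), glutathione reductase, returns oxidised glutathione to its reduced form. It had 78.7 and 77.9 CPM in control and 78.4 and 73.7 CPM in conditioned medium, and the groups overlapped. The log2 fold change was -0.04 ± 0.05 (edgeR adjusted p = 0.644), an interval of 0.896-fold to 1.05-fold. G6pdx (Entrez 14381, chromosome X, 74409483 to 74428880) encodes glucose-6-phosphate dehydrogenase, the entry to the pentose phosphate pathway and a main source of NADPH. It had 61.4 and 63.3 CPM in control against 69.4 and 70.0 CPM in conditioned medium. The groups did not overlap, and the log2 fold change was 0.16 ± 0.06, an interval of 1.03-fold to 1.21-fold before adjustment, but the gene just missed the threshold (edgeR adjusted p = 0.0533). It was called with upper-quartile scaling, with a filter at 1 CPM, with a replicate block and without control replicate 2 (edgeR adjusted p = 0.0362, 0.0481, 0.0449 and 0.0341), within a range of 0.0341 to 0.456 over 15 alternatives. Ikbkg, on the opposite strand, shares 128 exon bases, 4.83%, with G6pdx.

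Txnrd1 (Entrez 50493, chromosome 10, 82833951 to 82897724), cytosolic thioredoxin reductase, passes electrons from NADPH to thioredoxin. It had 295 and 290 CPM in control and 295 and 291 CPM in conditioned medium. Its log2 fold change of 0.0005 ± 0.04 (edgeR adjusted p = 0.996) was the smallest of the 10 in size, and the interval of 0.941-fold to 1.06-fold bounds any change in these libraries closely. Srxn1 (Entrez 76650, chromosome 2, 152105524 to 152111376), sulfiredoxin, repairs overoxidised peroxiredoxins. It had 186 and 183 CPM in control and 188.4 and 187.7 CPM in conditioned medium, and its log2 fold change was 0.02 ± 0.04 (edgeR adjusted p = 0.760), with an interval of 0.954-fold to 1.08-fold. The Srxn1 libraries of the groups did not overlap, as was so for 7 of the 10 genes and for 57.2% of all genes tested.

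Nqo1 (Entrez 18104, chromosome 8, 107388225 to 107403205) encodes NAD(P)H quinone dehydrogenase, which reduces quinones by a transfer of 2 electrons and is among the most used readouts of NRF2 activity. It had 36.3 and 29.4 CPM in the control libraries and 42.5 and 47.2 CPM in the conditioned medium libraries. Both treated libraries were higher than both controls, and the controls differed from each other by more than the treated libraries did. The log2 fold change of 0.45 ± 0.09 (edgeR adjusted p = 8.12e-04), an interval of 1.21-fold to 1.55-fold, was the largest in size of the 10. It was 0.62 without control replicate 1 and 0.31 without control replicate 2. It was 0.37 without conditioned medium replicate 2, where the call was lost. With a control library left out, the spread came from the conditioned medium pair alone. The calls kept there do not take in the difference between the controls.

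**Figure D4:**
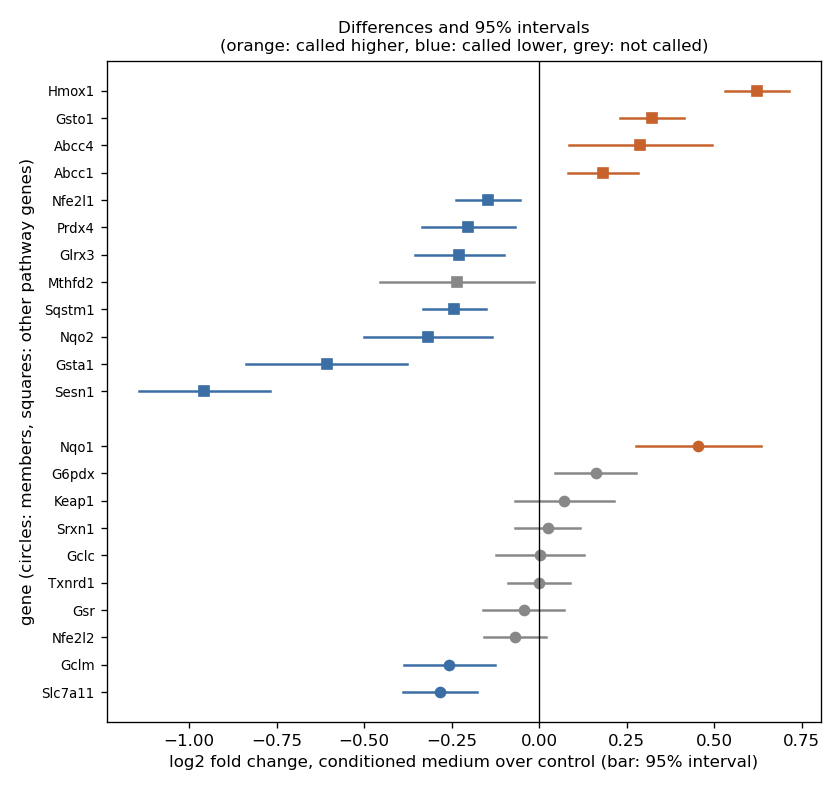
Log2 fold change of conditioned medium over control with its 95% interval, not adjusted for the number of genes. Circles are the 10 members and squares 12 other genes of the pathway. The squares were picked by a fixed rule that favours called genes of large change. They do not stand for their lists, where 82 of 95 genes tested were not called. Slc7a11 (-0.28) and Gclm (-0.26) lie at the low end of the members and Nqo1 (0.45) at the high end, while Sesn1 (-0.96) and Hmox1 (0.62) lie farther out.

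The other genes of the pathway were read from 7 lists of 110 genes, 95 of which were tested. Of these, 6 were called higher and 7 lower, 13 in all beside the 16.8% of all genes called, with a median log2 fold change of 0.01. Without conditioned medium replicate 1 or 2 they numbered 5 and 4 (beside 5.71% and 4.03% of all genes), and DESeq2 called 6 (beside 6.72%).

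Among regulators and partners of NRF2, 2 of 13 tested were called, both lower, beside 16.8% of all genes called and 8.23% called lower. With 13 genes nothing about the list is read from this count. Its median log2 fold change was -0.03. Sqstm1, encoding p62, an autophagy receptor that can bind KEAP1, stood at 422 ± 14.6 CPM in control and 357 ± 0.218 CPM in conditioned medium (-0.24 ± 0.04 on the log2 scale; edgeR adjusted p = 4.61e-04). Nfe2l1, encoding the related factor NRF1, was at -0.15 ± 0.04 (edgeR adjusted p = 0.0240). Cul3, the ligase scaffold that works with KEAP1, was at -0.03 ± 0.05, Bach1, a repressor that competes at the same elements, at 0.03 ± 0.06, and Mafg, a small MAF partner, at 0.03 ± 0.08, none of them called. Sqstm1 lost its call without either conditioned medium library (edgeR adjusted p = 0.0581 and 0.0775, from 3.01e-12 over the alternatives), as did Nfe2l1 (0.254 and 0.247), which DESeq2 did not call either (adjusted p = 0.146; from 0.00226 over the alternatives).

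Of 8 other glutathione synthesis and turnover genes tested, Abcc1, which exports glutathione conjugates, was the member that passed, beside 16.8% of all genes. It rose by 0.18 ± 0.05 on the log2 scale, with 114 ± 1.18 CPM in control and 130 ± 0.738 CPM in conditioned medium (edgeR adjusted p = 0.0112). Gss, which completes glutathione, stood at 6.17 ± 0.479 and 5.69 ± 1.21 CPM (edgeR adjusted p = 0.776). Among 10 glutathione peroxidases, glutaredoxins and glyoxalases, Glrx3, an iron-sulfur glutaredoxin, was the gene called, beside the same 16.8%. It fell by 0.23 ± 0.06 on the log2 scale (edgeR adjusted p = 0.0124). With 8 and 10 genes nothing about these lists is read from the counts. The medians of these lists were -0.12 and 0.01. Abcc1 and Glrx3 lost their calls in DESeq2 (adjusted p = 0.150 and 0.202), without conditioned medium replicate 1 (edgeR adjusted p = 0.133 and 0.167) and without replicate 2 (0.185 and 0.121), their alternatives running from 0.00269 and 0.00198.

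Glutathione transferases, which join glutathione to electrophiles, had 1 rise and 1 fall among 20 tested. Over all genes tested, 8.53% were called higher and 8.23% lower, and nothing about the list is read from its counts. The list's median log2 fold change was 0.0042. Gsta1 had 17.1 CPM in each control library and 11.0 and 11.4 CPM in the conditioned medium libraries; it fell by 0.61 ± 0.11 on the log2 scale (edgeR adjusted p = 5.68e-04). Gsta1 has close paralogs, and the counting could split or share their reads, so its value is uncertain. Gsto1, an omega class member, had 331 and 311 CPM in control and 400 and 403 CPM in conditioned medium (0.32 ± 0.04 on the log2 scale; edgeR adjusted p = 2.96e-05). Both calls were kept in all 15 alternatives.

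Among 13 thioredoxin and peroxiredoxin genes, 2 were called, both lower, beside 16.8% of all genes called and 8.23% called lower. Nothing about the list is read from this count, and its median was 0.02. Sesn1, encoding sestrin 1, a stress-inducible regulator of mTORC1 signalling, showed the steepest fall in the 7 lists: it had 30.0 and 32.7 CPM in control and 16.0 and 16.3 CPM in conditioned medium. This was 1.94-fold lower (log2 fold change -0.96 ± 0.09; edgeR adjusted p = 3.02e-07) and was called in all 15 alternatives. Prdx4, the peroxiredoxin of the endoplasmic reticulum, was at -0.20 ± 0.06 (edgeR adjusted p = 0.0333) and was not called in 6 of the 15 alternatives, which ran from 0.00136 to 0.354: upper-quartile scaling, no count filter, DESeq2 and without control replicate 1 (log2 fold change -0.14), conditioned medium replicate 1 (-0.15) or conditioned medium replicate 2 (-0.27). Txn1, the substrate of Txnrd1, was at 181 ± 19.4 and 186 ± 3.66 CPM, and Prdx1, a substrate of Srxn1, at 382 ± 20.2 and 404 ± 12.4 CPM. Neither Txn1 nor Prdx1 was called (edgeR adjusted p = 0.747 and 0.244), except without control replicate 1, where they were at 0.15 and 0.14 (edgeR adjusted p = 0.0130 and 0.00251, their alternatives reaching 0.962 and 0.765).

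Of 13 genes of NADPH supply and the pentose phosphate pathway tested beside G6pdx, 0 were called by edgeR, 0 by DESeq2 and 0 by limma-voom, where these tools called 16.8%, 6.72% and 16.7% of all genes, and 1 had an unadjusted p under 0.05. With 13 genes nothing about the list is read from these counts. That gene was Mthfd2, a mitochondrial folate enzyme (-0.24 ± 0.11; edgeR adjusted p = 0.138), which was called without control replicate 1 (-0.36; edgeR adjusted p = 0.0174) and stood at -0.11 without control replicate 2, its alternatives reaching 0.606. Pgd, which makes NADPH in the step after G6pdx and Pgls, was at 56.8 ± 4.54 and 59.7 ± 2.68 CPM (edgeR adjusted p = 0.487). The list's median was 0.02.

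Other NRF2 targets had 4 rises and 1 fall among 18 tested, beside 8.53% of all genes higher and 8.23% lower, with a median of 0.06. Hmox1, heme oxygenase, had 165 and 166 CPM in control and 254 and 256 CPM in conditioned medium; it rose by 0.62 ± 0.04 on the log2 scale (edgeR adjusted p = 6.99e-09) and was called in all 15 alternatives. Nqo2, a quinone reductase related to Nqo1, had 36.1 and 31.4 CPM in control against 25.1 and 28.8 CPM, a fall of 1.25-fold, opposite in sign to Nqo1 (-0.32 ± 0.09; edgeR adjusted p = 0.0161). Abcc4, a conjugate exporter, rose by 0.29 ± 0.10 (edgeR adjusted p = 0.0480), Akr1b8, an aldo-keto reductase, by 0.21 ± 0.05 and Ftl1, the ferritin light chain, by 0.15 ± 0.04. Without conditioned medium replicate 1 or 2, Nqo2 (edgeR adjusted p = 0.261 and 0.0635), Abcc4 (0.130 and 0.381), Akr1b8 (0.119 and 0.126) and Ftl1 (0.190 and 0.426) were not called. Nqo2 and Abcc4 were also lost in DESeq2 and without control replicate 1 (log2 fold changes there -0.21 and 0.24), Akr1b8 in DESeq2, and Abcc4 with library totals, no count filter or thinned counts. The lowest adjusted p over the alternatives was 7.28e-05 for Nqo2, 0.0186 for Abcc4, 2.90e-04 for Akr1b8 and 1.17e-06 for Ftl1.

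Across the 4 libraries, the tested genes with a pattern nearest to Nfe2l2, by the distance between log2 CPM values centred on each gene's mean, were Csnk1g3, Plk2 and Clcn4 among 7247 candidates of at least 20 CPM. They stood at log2 fold changes of -0.06, -0.08 and -0.06, none called. Nearest to Nqo1 were Pfkl (0.46 ± 0.07), Ccdc9b (0.41 ± 0.06) and Adamts1 (0.41 ± 0.06). With 4 libraries in 2 groups such likeness is a description only.

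The calls among the members rested on few libraries. With a control library left out, the spread came from the conditioned medium pair alone, so calls there do not take in the difference between the controls. With either conditioned medium library left out, the spread came from the control pair alone and 1 of the 10 was called, Nqo1 without replicate 1 (beside 5.71% of all genes) and Slc7a11 without replicate 2 (beside 4.03%). DESeq2 called 2, Nqo1 and Slc7a11 (beside 6.72%). The count was 4, with G6pdx added, under upper-quartile scaling (beside 16.6%), the filter at 1 CPM (17.6%), the replicate block (19.2%) and without control replicate 2 (21.9%). It was 3 under RLE scaling (beside 16.8%), library totals (15.8%), no count filter (9.83%), a robust spread (18%), limma-voom (16.7%), thinned counts (16.1%), only rows with a symbol (17.9%) and without control replicate 1 (17.1%). The 3 called members had the same sign in all 15 alternatives, as did Nfe2l2, Keap1, Srxn1 and G6pdx, while Gclc, Txnrd1 and Gsr changed sign in 4, 4 and 1 of them without a call.

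**Figure D5:**
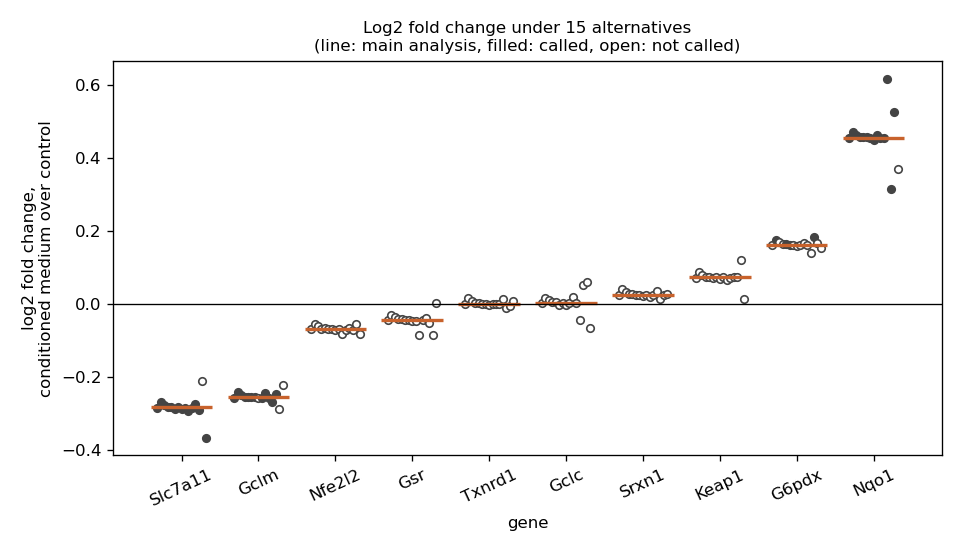
Log2 fold change of each member under 15 alternative analyses (points, filled where called) beside the main value (line). Nqo1 is the most scattered, from 0.31 to 0.62, and Slc7a11 runs from -0.37 to -0.21, while Txnrd1 stays between -0.01 and 0.02.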

How the data were processed

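Total RNA was made into libraries with an unstranded TruSeq kit, per the labels' protocols. Raw gene counts for 4 libraries, under Entrez identifiers, were deposited by the authors as 1 table. Per the submitters' processing notes, reads were handled with STAR (2.5.2b) and with featureCounts from Subread (1.4.6-p1) on mm10; how multi-mapping reads were counted was not given in the sources used here. Symbols came from RefSeq (GRCm38.p6); 25275 of 27179 rows matched, and the 1904 others, 6.31% of counts, stayed in the fit.

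Counts were analysed with edgeR 4.0.16 (R 4.3.3): filterByExpr (minimum count 10, total 15), TMM scaling, quasi-likelihood test, two-sided, without a replicate block, Benjamini-Hochberg adjustment over 13897 genes, called under 0.05. SEs were obtained by dividing the size of each log2 fold change by the root of its F statistic; 95% intervals use the fit's t quantile. CPM values are TMM-scaled. At these depths 3 counts equal 0.167 to 0.217 CPM. The procedure was also run on counts simulated from its own fitted spread. That run cannot show how the calls behave where this spread is wrong.

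Alternatives were other scalings and filters, a replicate block, a robust spread, DESeq2 1.42.0, limma-voom (limma 3.58.1), thinned counts, only rows with a symbol, and each library left out. Members, lists and tests were chosen with earlier results of these data known. Named genes are all members, the 3 called genes of largest change per list (or the smallest p), Hmox1, and the 3 genes nearest in pattern to Nfe2l2 and to the most changed called member. Ftl1, Akr1b8, Slc3a2, Bach1, Cul3, Mafg, Gss, Txn1, Prdx1 and Pgd were named after their values were seen, the first pair to complete a list's calls and the others for their roles. The comprehensive exon lengths were added after seeing the data.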

Additional observations from a re-analysis of the deposited data

How the results depend on the processing

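Of 150 values of the 10 genes (15 alternatives each), 141 kept their side of the threshold, 5 lost a call and 4 gained one, and 0 called values changed sign. Over all genes the count called was 2330; DESeq2 called 857, and leaving out each library in turn gave 569 to 3107. The count of members called was 3 and ran from 1 to 4 with a library left out, with 0 to 2 higher and 0 to 2 lower. Members called higher numbered 2 with upper-quartile scaling, with a filter at 1 CPM and with the replicate block, G6pdx being the added gene. DESeq2 called 1 lower. Genes of the 7 lists called numbered 13, 6 in DESeq2 and 4 to 19 with a library left out. The labels do not say whether the replicate numbers pair cultures. Same-numbered libraries' deviations from their group means had a correlation of -0.08 over 7512 genes. With 2 libraries per group this shows no shared deviation but cannot settle the pairing. The replicate block raised the count of genes called to 2671 and of members called to 4. Groups of 2 libraries and culture batches that the labels do not name limit what these counts resolve. Exon lengths from the comprehensive annotation moved the control level per kb of 8 of the 10 genes by more than 1 SD of the control libraries; Srxn1 moved by less and Nqo1 kept its length.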
